A study of Rattus norvegicus with 17 samples.

Results

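Glycolytic enzymes were examined in RNA of hippocampal synaptosomes, the pinched-off and resealed nerve endings that are isolated from homogenized tissue. The 10 enzymes considered were Hk1, Gpi, Pfkm, Aldoa, Gapdh, Pgk1, Eno1, Eno2, Ldha and Ldhb. A probe was taken as a member when its annotated gene symbol, or the current symbol of its Entrez ID, was one of these names. In total, 8 of the 10 had such a probe, with 1 probe each, out of 22226 probes and 12978 genes with a symbol on the array. Hk1 and Gapdh had no probe annotated with their symbol and are named only. All 8 members passed the detection filter, with a detection p of 0 on every array.

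The samples came from male F1 hybrids of Fischer 344 and Brown Norway rats, aged 12 months (adult, n = 5) or 28 months (n = 12). The aged rats had been classed by their search accuracy in the Morris water maze, a test of spatial memory, as cognitively intact (n = 5) or impaired (n = 7), so that the aged groups differ in performance and not in a treatment. No rat carried a transgene, and each array (Illumina RatRef-12) held the RNA of the whole hippocampal synaptosomes of 1 rat. All adult arrays lay on 1 slide and all aged arrays on another, so against adults slide and age cannot be told apart, while intact and impaired rats shared a slide.

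Glycolysis splits glucose into pyruvate and yields ATP without oxygen, and nerve endings draw on it for the rapid ATP demand of vesicle recycling and ion pumping. The preparatory steps (hexokinase, glucose-6-phosphate isomerase, phosphofructokinase, aldolase) consume ATP, and the later steps (glyceraldehyde-3-phosphate dehydrogenase, phosphoglycerate kinase, enolase and pyruvate kinase) return it with a gain. Lactate dehydrogenase then interconverts pyruvate and lactate as a tetramer of A chains (Ldha) and B chains (Ldhb), of which the A chain is the typical form of muscle and the B chain that of heart and neurons.

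The start-site sequences of the genes on which the results turn are given first, for Gpi, the member that passed the test, and for the pair Ldha and Ldhb, whose differences with age had opposite signs. They are the RefSeq promoter windows of the rat build GRCr8, 250 bases before to 50 after the annotated start. Capitals mark each ACGTG on either strand (written CACGT on the other), a form of the core of the hypoxia response element. The form GCGTG was not searched and is not marked, so a window without a match can still hold it.
Gpi (chr1:95993212-95993511, minus strand): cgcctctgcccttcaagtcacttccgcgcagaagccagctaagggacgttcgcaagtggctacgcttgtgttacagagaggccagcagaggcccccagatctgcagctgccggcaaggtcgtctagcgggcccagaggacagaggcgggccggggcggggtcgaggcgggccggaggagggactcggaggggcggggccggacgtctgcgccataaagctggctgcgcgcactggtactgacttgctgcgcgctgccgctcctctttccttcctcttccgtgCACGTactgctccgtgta
Ldha (chr1:106507842-106508141, plus strand): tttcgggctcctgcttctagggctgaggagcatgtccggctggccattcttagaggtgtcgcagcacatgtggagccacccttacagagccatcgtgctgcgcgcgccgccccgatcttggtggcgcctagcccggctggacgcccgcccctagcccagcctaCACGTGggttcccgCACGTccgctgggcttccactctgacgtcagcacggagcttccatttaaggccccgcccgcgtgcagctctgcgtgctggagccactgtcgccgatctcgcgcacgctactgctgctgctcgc
Ldhb (chr4:177177359-177177658, minus strand): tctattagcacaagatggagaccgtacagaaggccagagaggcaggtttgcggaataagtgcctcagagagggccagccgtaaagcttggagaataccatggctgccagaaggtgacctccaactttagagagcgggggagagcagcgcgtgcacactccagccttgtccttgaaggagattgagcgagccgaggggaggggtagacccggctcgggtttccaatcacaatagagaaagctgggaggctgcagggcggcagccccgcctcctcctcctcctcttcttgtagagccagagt
The Ldha window held 3 matches, of which 2 overlap as the palindrome CACGTG, the Gpi window held 1 match and the Ldhb window none. Of the 10 members, 9 had at least 1 promoter entry, 13 windows in all, and 8 of these 13 windows held a match. Counted by gene, 8 of the 9 had a window with a match, Ldhb being the exception. Aldoa, Eno1 and Hk1 had more than 1 window, and no share by gene was computed over all genes. Over the 33469 windows of this length in the table, 19.3% held ACGTG on either strand, 7.62% held 2 or more matches and 6.42% held CACGTG. These matches describe the letters in the window, and no binding was measured here.

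Array brightness varied, with mean signals from 313 to 617, and precision is limited by how many arrays there are. Adult replicate 4 stood apart, with the fewest detected probes (10440) and a mean correlation of only 0.976 with the rest. Member differences against adults that rest on it are given with and without it. Intensities were therefore background-corrected, quantile-normalized and put on the log2 scale, and 10457 probes were tested with limma. A gene was called at an adjusted p under 0.05 over all of these probes. Neuron and synapse markers had a mean log2 intensity between 10.64 and 10.96 on all arrays, with overlapping groups, and 1 of the 17 tested, the growth-cone protein gene Stmn2, was lower in aged rats (log2 difference -0.19, adjusted p = 0.00887 from limma). Markers of other cells were also present. All 13 tested microglia and macrophage markers lay above 0 in aged against adult rats (median 0.271, 1 called, the invariant chain gene Cd74), and their mean level spanned 8.73 to 8.90 among adults, 9.10 to 9.31 among aged intact and 9.02 to 10.45 among aged impaired rats. Among the tested markers of oligodendrocytes (10), astrocytes (8), endothelium and blood (5) and choroid plexus (2), 0 were called in limma, with 2, 1, 0 and 0 at an unadjusted p under 0.05. Of all tested probes, 17.2% lay at that level in aged against adult rats. The part of these cells in the differences below was not tested, and in such bulk RNA fewer nerve endings or cells of a type and less RNA in each cannot be told apart.

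Gpi was lower in aged than in adult rats, a call close to the threshold, and it was the only member called. The other 7 differed by amounts that did not pass the test, in the range from -0.211 for Pfkm to 0.127 for Ldhb. Of the 8 members, 1 was called lower and 0 higher between aged and adult rats, where 0.708% of all tested probes were called lower and 0.488% higher. Below 0 lay 6 of the 8, with a median log2 difference of -0.083 against -0.006 over all tested probes, whereas with no normalization all 8 lay above 0, with a median of 0.15 against 0.216 over all probes. Without adult replicate 4 the median was -0.052, with 5 members below and 3 above 0. All tested probes include dim ones, whose differences the background correction compresses. Here and below, aged against adult (also written as with age) is the mean of both aged groups minus the adult mean. Slide and age cannot be told apart in it.

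**Figure D1:**
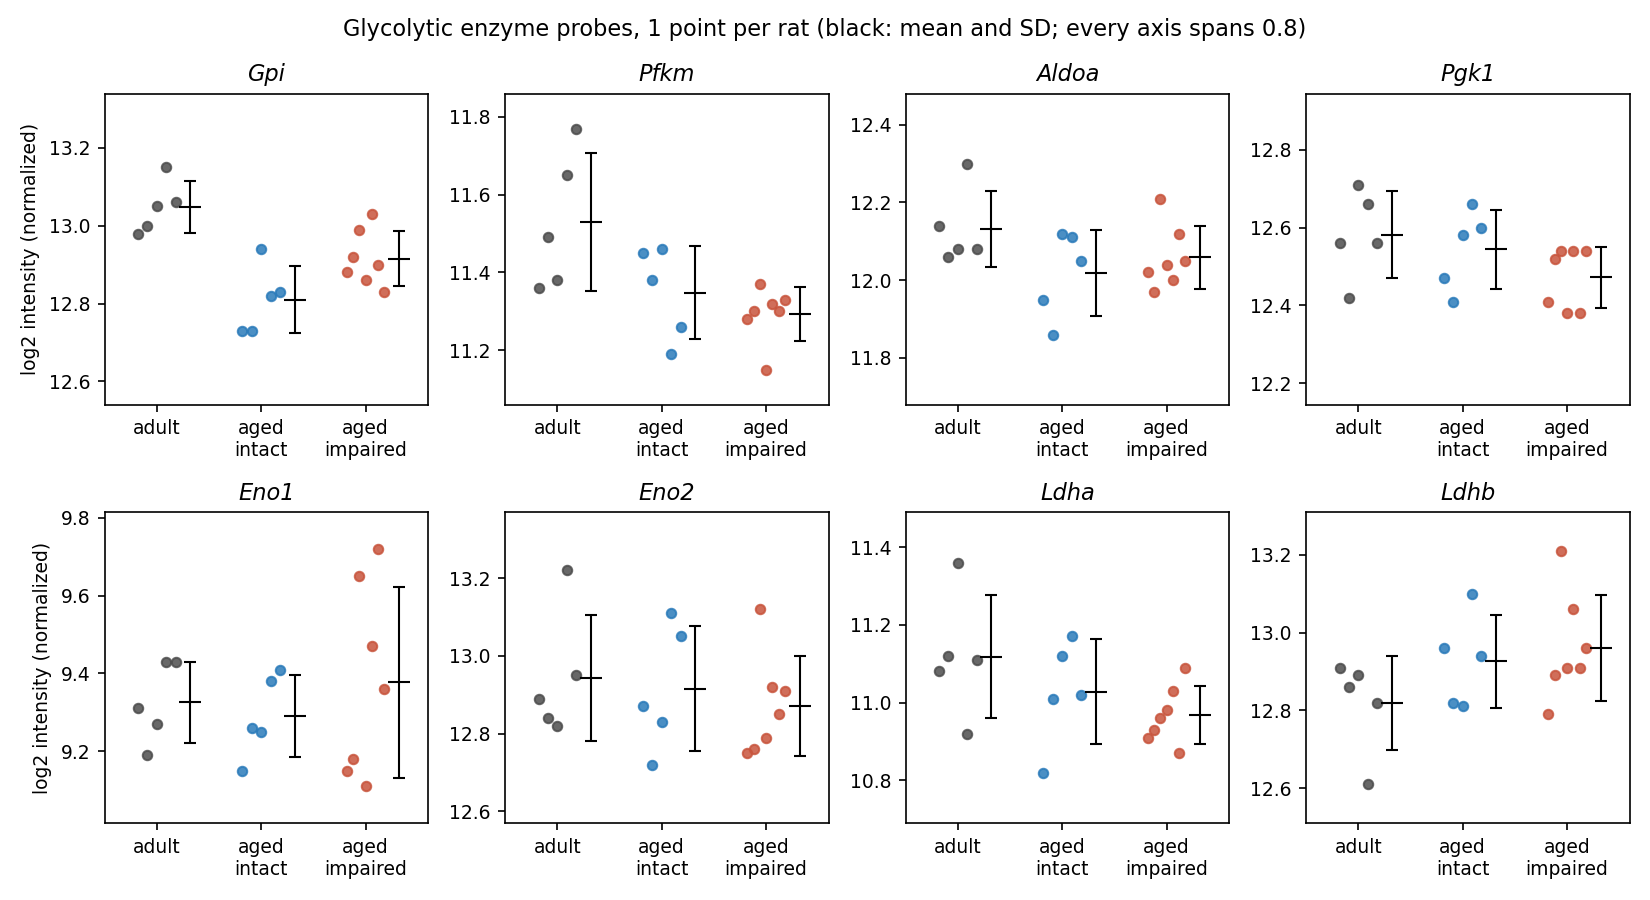
Normalized log2 intensity (y axis) of the 8 glycolytic enzyme probes in the 17 rats by group (x axis). Points are single rats, black bars the mean and SD of a group, and every y axis spans the same width. Gpi is the only gene whose aged intact rats (12.73 to 12.94) all lie below the adult rats (12.98 to 13.15), and Eno1 spreads most widely in the aged impaired rats (9.11 to 9.72).

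Gpi encodes glucose-6-phosphate isomerase, which converts glucose-6-phosphate into fructose-6-phosphate. Its log2 intensity was 12.98, 13, 13.05, 13.15 and 13.06 in adult replicates 1 to 5 and 12.73, 12.73, 12.94, 12.82 and 12.83 in aged intact replicates 1 to 5. In the aged impaired rats it ran from 12.83 to 13.03, with a median of 12.90. All 5 intact rats lay below all 5 adults, and the impaired rats lay between, overlapping both groups, with none of the 12 aged rats above the adult mean.

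The group means were 13.05 ± 0.07 (SD, n = 5) in adult, 12.81 ± 0.09 (SD, n = 5) in intact and 12.91 ± 0.07 (SD, n = 7) in impaired rats. In aged against adult rats Gpi was lower by 0.185 on the log2 scale (standard error 0.039, adjusted p = 0.0389 from limma), at 0.880-fold. In intact against adult rats it was lower by 0.237 (standard error 0.047, adjusted p = 0.0469), at 0.849-fold. This was 1 of 8 members called lower, where 0.115% of all tested probes were called lower and 0.191% higher. Gpi was also the 1 member without overlap in that comparison, where 1.83% of all tested probes had every intact array below every adult array. Impaired rats differed from adults by -0.133 (standard error 0.043, adjusted p = 0.166) and from intact rats by 0.104 (standard error 0.043, 95% interval 0.01 to 0.20, adjusted p = 0.996), so that neither of these passed.

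Both Gpi calls were close to the threshold. They were lost when any 1 of adult replicates 2 to 5, intact replicates 1, 2, 4 and 5 or impaired replicates 1, 2, 6 and 7 was left out, with log2 differences between -0.201 and -0.160 for all aged rats over the 17 such fits. Without adult replicate 4 the difference was -0.160 (adjusted p = 0.139 from limma) for all aged and -0.212 (adjusted p = 0.117) for intact rats. On the deposited signals with no normalization, where aged arrays were brighter and the median of all probes was 0.216, Gpi lay at 0.071 for all aged rats, still below that median.

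Pfkm encodes the muscle-type subunit of phosphofructokinase, the step at which glycolytic flux is chiefly controlled, and it had the largest difference with age of the 8 members in size. Its log2 intensity was 11.36, 11.49, 11.38, 11.65 and 11.77 in adult replicates 1 to 5 and 11.45, 11.38, 11.46, 11.19 and 11.26 in intact replicates 1 to 5, and in impaired rats it ran from 11.15 to 11.37 with a median of 11.30. Adult replicates 4 and 5 were the high samples, no aged rat lay above the adult mean, and the groups overlapped. The log2 difference was -0.211 with age (standard error 0.063, adjusted p = 0.110 from limma), -0.183 for intact (adjusted p = 0.325) and -0.239 for impaired rats (adjusted p = 0.126). Pfkm thus did not pass, and the difference lay between -0.254 and -0.152 over the fits that each left out 1 array, with the smaller value without adult replicate 5.

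Aldoa encodes aldolase A, which splits fructose-1,6-bisphosphate. It had means of 12.13 ± 0.10 (SD, n = 5), 12.02 ± 0.11 (SD, n = 5) and 12.06 ± 0.08 (SD, n = 7) in adult, intact and impaired rats. Adult replicate 4, at 12.30, was above every other rat. The difference with age was -0.092 (standard error 0.051, adjusted p = 0.365 from limma), or -0.049 without that array, and did not pass.

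Among the enzymes of the later steps, none was called. Pgk1, which encodes the phosphoglycerate kinase that forms ATP in glycolysis, had means of 12.58 ± 0.11, 12.54 ± 0.10 and 12.47 ± 0.08 (SD, n = 5, 5 and 7). It differed by -0.075 with age (standard error 0.050, adjusted p = 0.452 from limma). In impaired rats it ran from 12.38 to 12.54, and all 7 lay below the adult mean, with a difference of -0.111 that did not pass (adjusted p = 0.336).

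The enolase genes Eno1 and Eno2 encode the alpha chain found in most cells and the gamma chain of neurons, which carry out the same reaction before pyruvate is formed. Eno2 had means of 12.94 ± 0.16, 12.91 ± 0.16 and 12.87 ± 0.13 (SD, n = 5, 5 and 7), and the difference with age was -0.051 (standard error 0.076, adjusted p = 0.759 from limma). Its sign rested on adult replicate 4, the highest rat at 13.22, since the difference was 0.017 without it. Eno1 had means of 9.32 ± 0.10, 9.29 ± 0.10 and 9.38 ± 0.25 and a difference of 0.009 (standard error 0.092, 95% interval -0.19 to 0.21, adjusted p = 0.965), whose sign turned with several of the settings tried, median scaling among them (-0.047).

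Lactate dehydrogenase showed opposite signs in its A and B chains, although neither passed the test. The log2 intensity of Ldha was 11.08, 11.12, 11.36, 10.92 and 11.11 in adult replicates 1 to 5 and 10.82, 11.01, 11.12, 11.17 and 11.02 in intact replicates 1 to 5, with 10.87 to 11.09 and a median of 10.96 in impaired rats. That of Ldhb was 12.91, 12.86, 12.89, 12.61 and 12.82 in adult and 12.96, 12.82, 12.81, 13.10 and 12.94 in intact replicates, with 12.79 to 13.21 and a median of 12.91 in impaired rats. For both genes the groups overlapped. Adult replicate 4 was the lowest adult in both genes, 2 of the 12 aged rats lay above the adult mean of Ldha, and 10 of 12 above that of Ldhb.

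Ldha differed by -0.120 with age (standard error 0.062, adjusted p = 0.340 from limma) and Ldhb by 0.127 (standard error 0.066, adjusted p = 0.336). Without adult replicate 4 both values were lower, at -0.170 and 0.075, and without adult replicate 3 that of Ldha was closer to 0, at -0.059. For impaired against adult rats the differences were -0.148 (adjusted p = 0.297) for Ldha and 0.145 (adjusted p = 0.337) for Ldhb, and for intact against adult rats -0.091 (adjusted p = 0.649, and -0.030 without adult replicate 3) and 0.109 (adjusted p = 0.592). On the deposited signals with no normalization Ldha was 0.099 higher with age, against the shift of 0.216 in all probes.

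The difference between both chains on the same array does not change when all probes of an array are scaled by one factor. It is given as a description with no test, and only its change between groups can be read, since probes differ in their brightness. Ldha minus Ldhb was -1.83, -1.74, -1.53, -1.69 and -1.71 in adult and -2.14, -1.81, -1.69, -1.93 and -1.92 in intact replicates 1 to 5, and ran from -2.25 to -1.87 with a median of -1.96 in impaired rats. All 7 impaired rats lay below all 5 adults by a gap of only -1.87 to -1.83, 3 of the 5 intact rats did so too, and the aged groups overlapped. Of all pairs of tested probes, 2.38% had such a difference with no overlap between impaired and adult rats, in either direction. The means were -1.70 ± 0.11 (SD, n = 5), -1.90 ± 0.17 (SD, n = 5) and -1.99 ± 0.13 (SD, n = 7).

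The impaired rats were 0.29 below adults in this difference and the intact rats 0.20. Over the 6 other ways of background correction and scaling the impaired values lay between 0.28 and 0.33 below adults and the intact values between 0.19 and 0.25, and 8 to 10 of the 12 aged rats lay below every adult. The impaired and adult rats overlapped in 3 of these 6 settings, which are those without quantile normalization. The highest impaired value was then -1.77 against a lowest adult value of -1.88 with median scaling, -1.72 against -1.82 with no normalization and -1.74 against -1.85 with background subtraction and average scaling. Between the aged groups, which shared a slide, the difference was -0.09 with overlapping values, and was between -0.09 and -0.08 under the other settings. For Eno1 minus Eno2 the means were -3.62 ± 0.10, -3.62 ± 0.11 and -3.50 ± 0.18, and all groups overlapped.

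**Figure D2:**
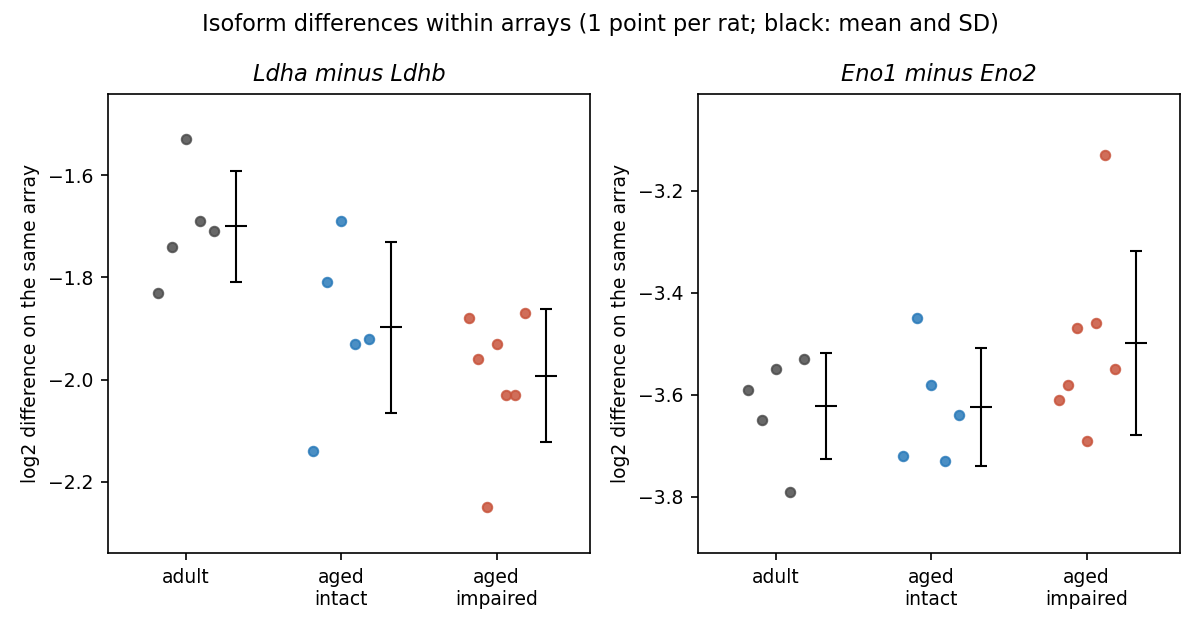
Log2 intensity of Ldha minus that of Ldhb (left) and of Eno1 minus that of Eno2 (right) on the same array, for 17 rats by group. Points are single rats and black bars the mean and SD. With the normalization used here, the aged impaired rats lie at -1.87 or lower for Ldha minus Ldhb and the adults at -1.83 or higher. This separation is not seen in 3 of 6 other settings, those without quantile normalization. The groups overlap for the enolases.

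Between aged impaired and adult rats, 0 of the 8 members were called in limma, where 0.105% of all tested probes were called lower and 0.258% higher. At an unadjusted p under 0.05 lay 3 members (Pfkm, Gpi and Ldha), against 16.3% of all tested probes, and the median over the 8 was -0.092 (-0.060 without adult replicate 4) against -0.008. Within the aged rats, impaired were compared with intact animals. In this comparison, which addresses cognitive performance at one age, 0 members and 0% of all tested probes were called. Of the 8, 1 member (Gpi) had an unadjusted p under 0.05, against 3.31% of all tested probes. The differences ran from -0.072 (Pgk1) to 0.104 (Gpi) with a median of -0.003 against 0 over all probes, and the 95% interval that reached farthest from 0 was that of Eno1, from -0.13 to 0.30. In the methods' test, a comparison over the 3 groups with a threshold of 1.2-fold, 0 members passed in each of the 3 pairs of groups. It was run on the same normalized values, and there Gpi in all 3 pairs and Pfkm in both pairs with adults had an unadjusted p under 0.05 and missed only the fold threshold. The comparisons of intact and of impaired rats with adults share the same 5 adult arrays.

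**Figure D3:**
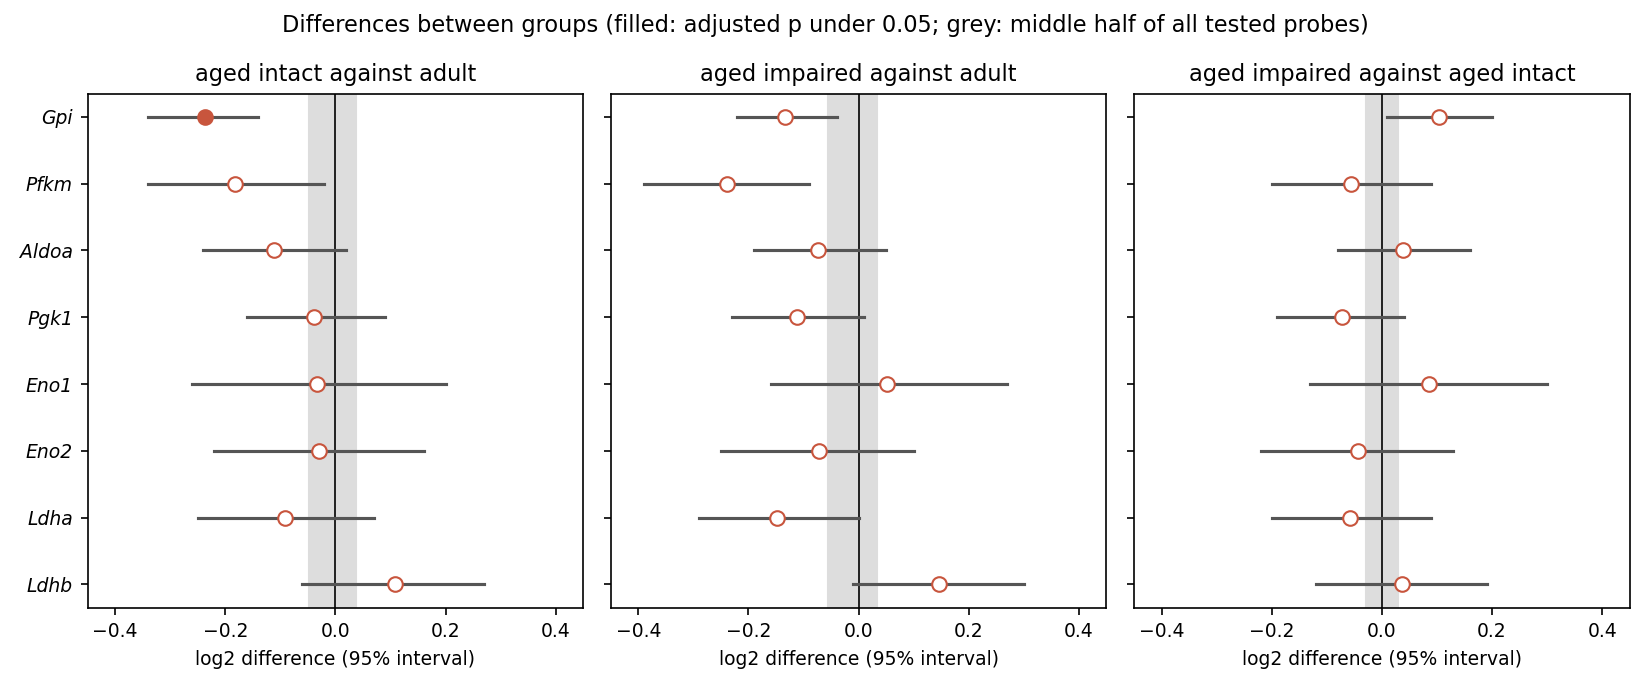
Log2 difference (x axis) of each of the 8 members (y axis) in 3 comparisons, as points with 95% intervals from limma. Filled points have an adjusted p under 0.05, which holds for Gpi in aged intact against adult rats (-0.237). The grey band spans the middle 50% of all tested probes, which include dim probes whose differences the background correction compresses.

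Within groups, some members varied together from rat to rat. After the mean of each group was taken off, the 28 pairs had a median Pearson r of 0.32 over 17 arrays, from -0.40 for Pfkm and Ldha to 0.78 for Aldoa and Eno2. Aldoa, Pgk1, Eno2 and Gpi had r between 0.49 and 0.78 in every pair, while Ldha had r of 0.11 with Gpi, -0.07 with Aldoa, 0.47 with Pgk1 and 0.40 with Ldhb. Adult replicate 4, which stood apart, was kept for these r, and none was computed without it. These values describe probes that share arrays, RNA preparations and the normalization, and the mean of the standardized members had r = 0.34 with the log2 mean signal of the array.

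In single rats, aged impaired replicate 3 had 7 of the 8 members above its group mean (standardized mean 1.21), and also the highest mean of the neuron and synapse markers (10.96). Aged impaired replicates 1 and 4 had 0 and 1 members above the group mean, with standardized means of -0.75 and -0.72, and replicate 4 had the highest mean of microglia and macrophage markers (10.45). Within groups the standardized mean had r = 0.35 with the neuron and synapse markers, which include Eno2, -0.40 with the microglia and macrophage markers and -0.53 with those of endothelium and blood. With the astrocyte, oligodendrocyte and choroid plexus markers r was -0.02, -0.24 and 0.12. Aged impaired replicate 4 was kept for all of these, and none was computed without it. Adult replicate 4 was the highest adult in Gpi, Aldoa and Eno2 and the lowest in Ldha and Ldhb. The tested genes most like the standardized member mean were Tspyl1 (r = 0.847), Mrpl48 (0.846), Armc9 (0.799), Slc35f6 (0.793) and Ate1 (0.790) over the 17 arrays, none of which was called in any comparison. The residual SD of the members lay between 0.0756 (Gpi) and 0.179 (Eno1), against a median of 0.0982 over all tested probes. That median includes dim probes, whose differences the background correction compresses.

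**Figure D4:**
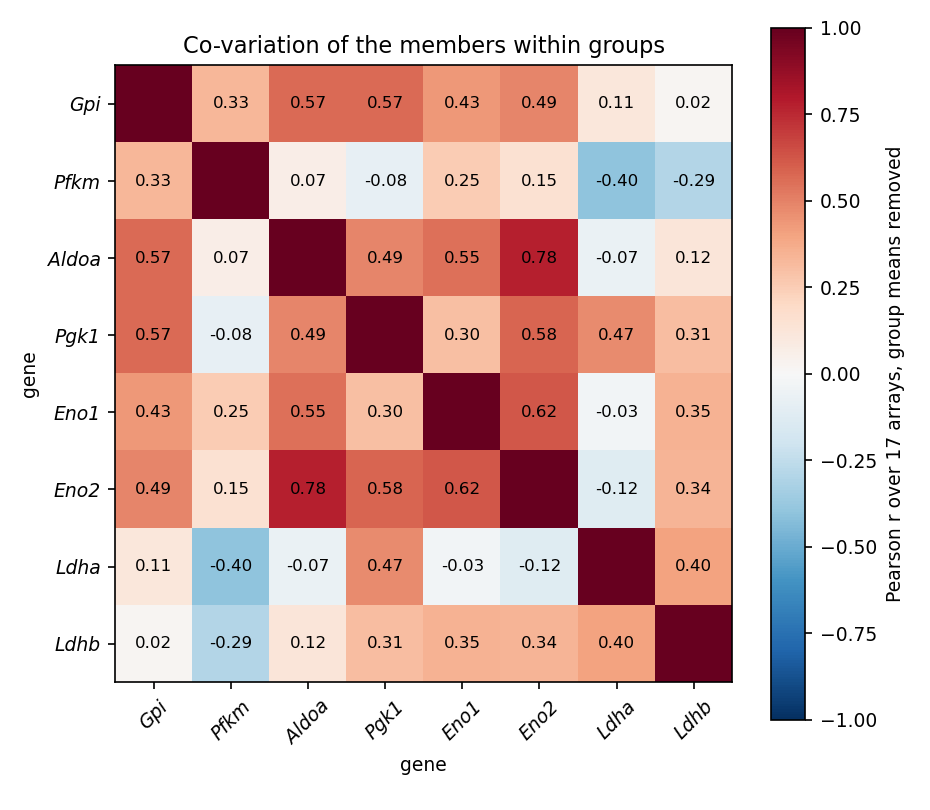
Pearson r between the log2 intensities of the 8 members over 17 arrays after the group means were removed (both axes: genes, colour: r). Aldoa and Eno2 have the highest value (0.78), and Pfkm and Ldha the lowest (-0.40).

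The neighbouring steps of glucose metabolism were read from lists of genes. Of 20 other glycolytic enzymes and isoforms, 14 had a probe, 10 were tested and 0 were called in limma between aged and adult rats, with 1 at an unadjusted p under 0.05 and a median of -0.009. Of all tested probes, 17.2% lay at that level in this comparison. The list gene at that level was Bpgm, which encodes bisphosphoglycerate mutase (-0.25, adjusted p = 0.155), followed by the aldolase gene of astrocytes, Aldoc (-0.09, adjusted p = 0.450). Besides Aldoc, isozymes of member enzymes differed by 0.00 for Pfkl (standard error 0.12), -0.01 for Pfkp, -0.01 for Eno3 and 0.01 for Hk2. Pfkp lay at 0.04 in intact and at -0.07 in impaired against adult rats. Eno3 and Hk2 were dim, with log2 intensities of 6.94 and 6.91 in adults, and the background correction compresses differences of such probes.

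Of 15 genes for the entry of pyruvate into mitochondria, 13 were tested, and Mpc2, which encodes a subunit of the mitochondrial pyruvate carrier, was called lower in aged against adult rats (-0.12, standard error 0.02, adjusted p = 0.0233 from limma), as it was for intact against adult rats (-0.13, adjusted p = 0.0446). Its log2 intensity of 7.28 in adults was dim, where the background correction compresses differences, and with a robust background the difference with age was -0.37 (adjusted p = 0.0174). It did not pass with median scaling (-0.11, adjusted p = 0.634 from limma) or with no normalization (-0.03, adjusted p = 0.84). Over all tested probes, 0.708% were called lower in aged against adult and 0.115% in intact against adult rats. Mpc1, the partner subunit, differed by 0.33 (adjusted p = 0.185) and did not pass. With no normalization Mpc1 was called higher in impaired against adult rats (0.63, adjusted p = 0.0488 from limma). In that setting the median of all probes was 0.254, and 364 of the 10457 tested probes were called higher and 0 lower.

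In the remaining lists 0 genes were called between aged and adult rats in limma. Over all tested probes, 17.2% had an unadjusted p under 0.05 in this comparison. Of the glycolysis regulators 5 were tested and 1 had an unadjusted p under 0.05, Vhl, which encodes the subunit that marks hypoxia-inducible factors for breakdown (-0.20, adjusted p = 0.278), followed by the kinase subunit gene Prkaa1 (0.02, adjusted p = 0.554). Of the glucose and lactate transporters 8 were tested with 0 at that level, the smallest p being those of the neuronal glucose transporter gene Slc2a3 (-0.02, adjusted p = 0.306) and of Bsg, which encodes a chaperone of lactate transporters (-0.17, adjusted p = 0.394). Prkaa1 and Slc2a3 were dim, with log2 intensities of 6.94 and 6.93 in adults, so that the background correction compresses their differences. The 10 tested genes of glycogen and gluconeogenesis had 2 at that level, the phosphatase gene G6pc3 (-0.32, adjusted p = 0.0671) and the phosphoglucomutase gene Pgm2 (-0.08, adjusted p = 0.207). With background subtraction and average scaling G6pc3 was called lower, by -0.34 with age (adjusted p = 0.019) and -0.45 in intact against adult rats (adjusted p = 0.024).

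The 13 tested genes of the tricarboxylic acid cycle had 1 at that level, Dlst (-0.22, adjusted p = 0.248 from limma), ahead of the succinate dehydrogenase gene Sdhb (0.14, adjusted p = 0.328). The 7 of the NADH shuttles had 0, led by Got1 (-0.12, adjusted p = 0.409) and Gpd1 (0.29, adjusted p = 0.420), and the 4 of the pentose phosphate pathway had 0, led by Rpia (-0.08, adjusted p = 0.503) and Rpe (0.07, adjusted p = 0.690). The medians of these 6 remaining lists lay between -0.054 and 0.029.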

How the data were processed

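Hippocampal synaptosome RNA of 17 rats was hybridized to 1 array each, and groups and replicate numbers come from the sample labels (the numbers from the description of each sample, which counts from 1 within its group, and not from the other numbers in the titles). Replicates are separate rats. Deposited intensity values are average bead signals from GenomeStudio (the submitters' processing notes name version 1.0.6), neither background-subtracted nor normalized, and a deposited p-value for detection over negative control beads stands beside each. They were put on the log2 scale by neqc (limma 3.58.1, R 4.3.3), which infers the background through the detection p-values, adds 16 as an offset and equalizes the quantiles of all arrays. A probe was tested if all arrays of at least 1 group had a detection p under 0.05 (10457 of 22226 probes). A single limma fit held all 3 groups, with Benjamini-Hochberg adjustment over these probes and a threshold of 0.05, and every adjusted p comes from it unless another setting or a left-out array is named beside it. Aged against adult was the mean of both aged groups minus adults.

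The probe with the highest mean stood for its gene. Symbols were those of the platform annotation, updated through Entrez IDs for 13151 of the 13192 probes that have 1. The background SD used by neqc was 120 to 225 per array, whereas the central controls gave 5.41 to 10.7, as used for a robust background, and this compresses differences of dim probes. The fit was tested on simulated data with planted changes larger than any member difference. That test does not show what is recovered at the sizes of the members. The members and lists were chosen with earlier results of these data known. By rule, all members were named, as was each pathway list gene that was called or had 1 of the 2 smallest p of its list with age, and the 5 genes most correlated with the member mean. Pfkl, Pfkp, Eno3, Hk2, Stmn2 and Cd74 were named outside the rule after their values were seen. Promoter windows are from RefSeq (GRCr8).

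Alternatives were other backgrounds, scalings, offsets and detection filters, a fit restricted to the groups compared, weights for arrays, slide position, a block for the replicate number, the methods' test (3 groups, Student-Newman-Keuls pairs, 1.2-fold) and leaving out each array. Added after seeing the data were subtraction of the mean background with average scaling, and equal weight for every aged array. Water maze scores are not analysed here.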

Additional observations from a re-analysis of the deposited data

Results flagged for a closer look

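In the aged impaired group, Pfkm had a log2 intensity of 11.15 in replicate 4, whose gap to the nearest of the other 6 rats (11.28) took up 0.60 of the range of the group, up to 11.37. This was the only such value among the 24 combinations of a member and a group examined, and chance alone sets apart about 1 in 20 groups in this way. The same array had the highest mean of microglia and macrophage markers (10.45), and the part of these in the value was not tested.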

How the results depend on the processing

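The count of 1 member called lower, Gpi, stayed at 1 in aged against adult and in intact against adult rats with an offset of 50 (for intact rats at the threshold, with an adjusted p of 0.05 after rounding) and with probes detected on all arrays, and, for all aged rats, with equal weight for every aged array (-0.176). It was 0 in both comparisons with no background correction, a robust background, median scaling, no normalization, no filter on detection, only the groups compared, array weights, slide position, the replicate block, and subtraction with average scaling, and for intact rats also in the methods' test. The Gpi differences with age were then between -0.185 and -0.155, apart from the signals with no normalization. The counts ran from 0 to 1 over the 17 fits that each left out 1 array in both comparisons, and stayed at 0 in the others, where no alternative called a member.

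With no normalization the median of all probes shifted by 0.216 with age and the signs of most members turned. The values were 0.071 for Gpi, 0.028 for Pfkm, 0.151 for Aldoa, 0.149 for Pgk1, 0.199 for Eno2 and 0.099 for Ldha in aged against adult, 0.068 for Aldoa, 0.112 for Pgk1, 0.123 for Eno1, 0.153 for Eno2 and 0.059 for Ldha in intact against adult, 0.180 for Gpi, 0.068 for Pfkm, 0.234 for Aldoa, 0.186 for Pgk1, 0.245 for Eno2 and 0.139 for Ldha in impaired against adult and 0.079 for Pfkm, 0.074 for Pgk1, 0.092 for Eno2 and 0.080 for Ldha in impaired against intact rats. Median scaling turned Eno1 with age (-0.047) and, between the aged groups, gave the opposite sign with 0.003 for Pfkm, 0.015 for Eno2 and 0.009 for Ldha. Slide position gave the opposite sign with 0.003 for Pgk1, 0.090 for Eno1 and 0.056 for Eno2 in intact against adult, -0.001 for Eno1 in impaired against adult and -0.023 for Aldoa, -0.092 for Eno1 and -0.012 for Ldhb in impaired against intact rats. Array weights turned Eno2 in intact against adult rats (0.003), and subtraction with average scaling turned Eno1 with age (-0.014). None of these values was called, and the cause of the turns was not tested.

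Leaving out 1 array turned signs in these ranges: Eno1 from -0.023 to 0.035 and Eno2 from -0.082 to 0.017 with age, Eno1 from -0.066 to 0.002 and Eno2 from -0.078 to 0.039 in intact against adult, Eno1 from -0.006 to 0.097 in impaired against adult, and Aldoa from -0.002 to 0.064, Eno2 from -0.092 to 0.006 and Ldhb from -0.005 to 0.080 in impaired against intact rats; the other member differences kept their sign. The replicate numbers, which come from the sample descriptions, did not pair the rats (correlations of same-numbered deviations from -0.381 to 0.238). With them as a replicate block, Gpi differed by -0.174 with age and by -0.237 in intact rats, Eno1 by -0.024 with age and -0.014 in impaired against adult rats, and 1 of all probes was called with age. Every member has 1 probe, so no mean over probes was made, and the methods' test has no pair of all aged against adult rats. With 5 to 7 arrays a group, the standard errors of the members, from 0.039 to 0.109, limit what could be called, and dim genes such as Mpc2 are compressed by the background.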
